A study of Homo sapiens with 3 samples.

Results

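The zinc finger gene clusters near the end of the long arm of human chromosome 19 (band 19q13) were described here in Hep3B cells, a line from a human hepatocellular carcinoma. Their CpGs were those of chromosome 19 in 3 intervals of the genome build GRCh37, namely 52.3 to 54.1 Mb (interval 1), 56.4 to 57.3 Mb (interval 2) and 57.6 to 58.9 Mb (interval 3). A CpG was used where the reads of its strands summed to at least 10 in each of the 3 libraries. This held for 9935 of the 12406 CpGs seen in the intervals, out of 2238764 CpGs used in the whole genome. Of the 9935, 8914 lay in 441 windows of 1 kb with at least 5 CpGs each, out of 113184 such windows in the genome. The other 1021 CpGs lay in 406 sparser windows and entered only the counts over CpGs. The 3 libraries were 1 of parental Hep3B cells and 1 from each of 2 Hep3B lines knocked out for the transcription factor SOX4 with CRISPR/Cas9, called KO #1 and KO #2 after their labels. No further treatment was labelled, and the knockout lines had been kept under puromycin. The labels do not say whether each knockout line grew from a single cell. The study compared the lines to ask how loss of SOX4 alters DNA methylation.

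Zinc finger genes of the KRAB type lie side by side in these clusters, where they arose by tandem duplication. Each encodes an array of zinc fingers that reads DNA and, in most members, a KRAB domain that recruits the corepressor TRIM28 and the machinery for repressive histone methylation, mainly to silence transposable elements. Methylation of a CpG-rich promoter goes with a silent gene, and several promoters of these clusters (ZNF154, ZNF671, ZNF582, ZNF677, ZSCAN18 and ZNF331 among them) are known for gaining methylation in tumours. ZNF331 and USP29 are also imprinted, so that methylation can differ between the parental copies of the gene.

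Stretches of 30 bases before the start site, those with the most CpGs of their promoter, are shown for 7 promoters that span the range of levels found. They are printed 5′ to 3′ on the strand of the gene, with each CpG in capitals. ZNF547 stands for the unmethylated majority, ZNF614 for a promoter with higher levels in the knockout lines, ZNF534 and ZNF671 for promoters with lower levels there, ZNF154 and ZNF331 for promoters methylated almost throughout, and ZNF667 for the promoter with the most CpGs used.
ZNF547, chr19:57874730-57874759, plus strand: tttgCGtgCGtgCGtgCGtgCGtgCGtcCG
ZNF667, chr19:56988911-56988940, minus strand: tgtgCGcaggCGCGggacctCGCGCGtcCG
ZNF614, chr19:52531645-52531674, minus strand: CGgCGccCGcagtctgaactCGCGatccCG
ZNF534, chr19:52932358-52932387, plus strand: CGgcccCGggccCGgcctgtaCGatgCGCG
ZNF671, chr19:58239003-58239032, minus strand: cctgCGgggggtgCGtgggCGggacttcCG
ZNF331, chr19:54057695-54057724, plus strand: gctgcctgCGCGctcCGgcCGctgggtgCG
ZNF154, chr19:58220753-58220782, minus strand: tttctcatCGcccagCGccctggagcttCG
The 7 CpGs of the ZNF547 stretch averaged 0% in all 3 libraries. The 6 CpGs of the ZNF614 stretch averaged 4.91% in parental cells, 18.2% in KO #1 and 19.1% in KO #2. The 4 CpGs of the ZNF671 stretch averaged 72.3%, 34.5% and 44.7% in the same order.

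Methylation was measured by capture of CpG regions with the TruSeq Methyl Capture EPIC probes, bisulfite conversion and sequencing, so the share of reads that kept a C at a CpG is its level. CpG reads over the genome numbered 96987706 to 133170621 per library. The median depth of the clusters' CpGs was 40 reads in parental cells, 36 in KO #1 and 48 in KO #2. A CpG with 40 reads carries a wide counting interval, and the reads were not marked by molecule, so intervals below cover counting error only. The reverse strand gave 82.2% to 82.6% of the clusters' reads in the 3 libraries. The clusters held 4.77 of every 1000 CpG reads in parental cells, 4.64 in KO #1 and 4.62 in KO #2. With 1 parental library, each test compares libraries and not conditions. An exact permutation of the 3 libraries could not go below p = 0.333. The KO #1 against KO #2 values are given as the spread between lines.

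The clusters were less methylated in both knockout libraries than in the parental library. The mean level over their 9935 CpGs was 36.7% in parental cells, 32.9% in KO #1 and 34.5% in KO #2, and the knockout lines together had 33.7% ± 1.11 (SD, n = 2). Both knockout libraries lay below the parental one, and KO #1 lay lowest, with a difference from parental of -3.80 points against -2.22 for KO #2. The same order held in each interval. Interval 1 averaged 38.0%, 33.0% and 35.2% in parental, KO #1 and KO #2. Interval 2, the most methylated, averaged 45.5%, 41.9% and 43.2%. Interval 3, with the most CpGs per window, averaged 31.4%, 28.7% and 29.8%. The mean of both knockout lines minus parental was -3.94 points in interval 1, -2.90 in interval 2 and -2.15 in interval 3. Counted over reads rather than CpGs, the clusters stood at 30.7%, 27.2% and 28.7%.

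**Figure D1:**
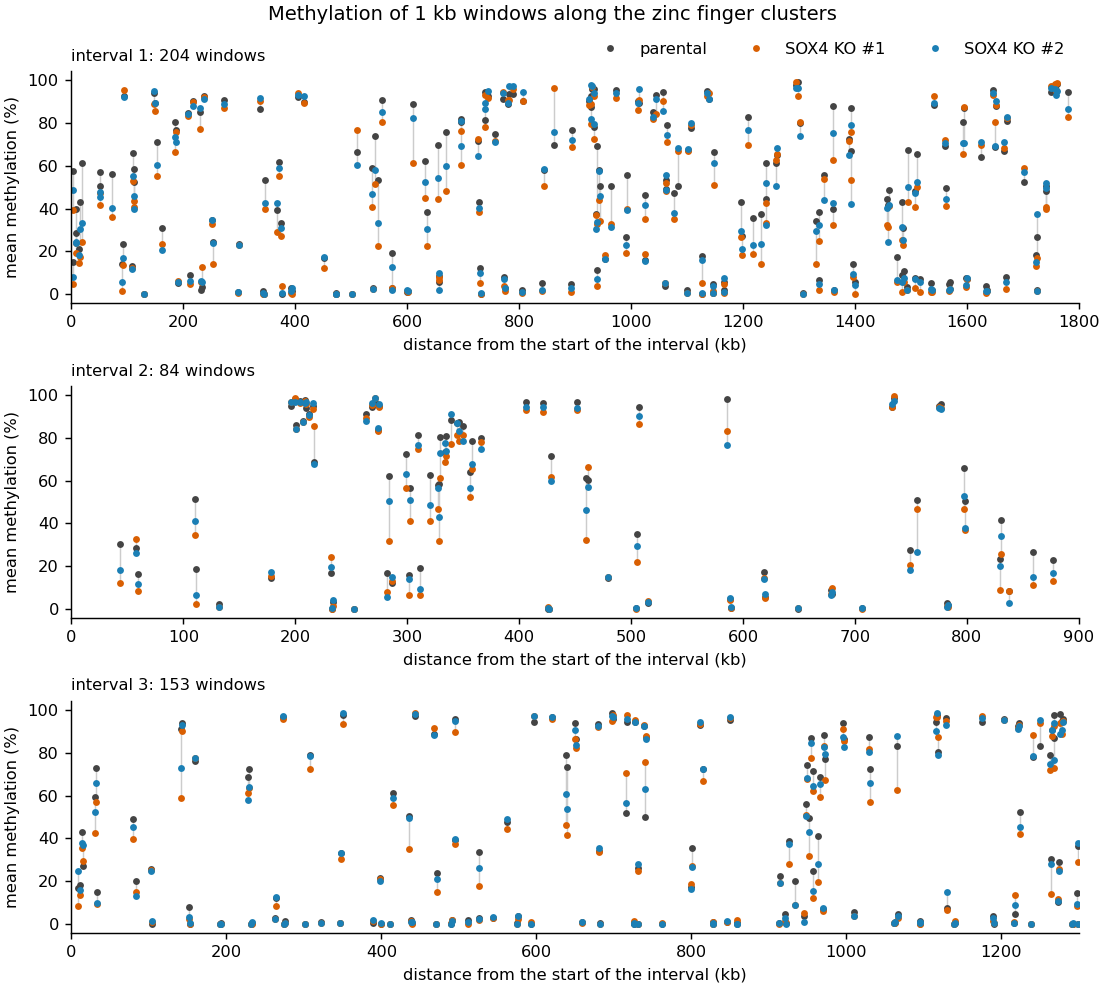
Mean methylation level in percent of each 1 kb window with at least 5 CpGs, against its distance in kb from the start of its interval, in parental cells (grey), SOX4 KO #1 (orange) and SOX4 KO #2 (blue). Grey lines join the lowest and highest of the 3 libraries for a window. Windows near 0% and above 90% lie side by side along each interval, and the wide gaps between libraries fall mostly on windows between these levels.

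Single windows were spread over the whole range. In parental cells 161 of the 441 windows were low (under 20%), 155 intermediate (20% to 80%) and 125 high (above 80%). The low windows had a median of 2.69% in parental cells, 1.42% in KO #1 and 1.84% in KO #2, and the high windows had medians of 92.7%, 90.8% and 91.3%. The intermediate windows had medians of 52.3%, 40.9% and 45.9%. All but 1 of the 161 low windows were still low in KO #1, and likewise in KO #2. Of the 125 high windows, 20 were intermediate in KO #1 and 16 in KO #2. Of the 155 intermediate windows, 22 were low and 4 high in KO #1, while 10 were low and 1 was high in KO #2.

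Most windows differed little between libraries. The difference from parental was under 5 points in 259 of the 441 windows (58.7%) for KO #1 and in 313 (71.0%) for KO #2. The median difference was -2.09 points for KO #1, with 329 windows lower and 110 higher than in parental cells. For KO #2 it was -1.22 points, with 300 lower and 138 higher. KO #1 itself was below KO #2 in 298 windows and above it in 141, with a median of -0.94 points. In the same order, lower windows made up 74.6%, 68.0% and 67.6% of the clusters' windows. In the genome they made up 68.5%, 64.7% and 63.5%, and on the rest of chromosome 19 65.1%, 61.7% and 61.5%. The 10th percentile of the differences was -15.9 points in KO #1 and -10.9 in KO #2, and the 90th was 1.66 and 2.05 points. The level of KO #2 lay between those of parental and KO #1 in 234 windows, or 53.1%. This was near the 52.6% of windows in the genome and the 50.8% on the rest of chromosome 19.

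Single CpGs were compared by a 2-sided Fisher exact test on their methylated and other reads, and p-values were adjusted after Benjamini-Hochberg across the 2238764 CpGs of the genome. A CpG was called where the adjusted p was below 0.05 and the levels lay 25 points or more apart. By this test 385 CpGs of the clusters were lower in KO #1 than in parental cells. That is 3.88% of the clusters' CpGs, against 4.46% of all CpGs tested in the genome. Another 30 CpGs were higher in KO #1, or 0.302% against 0.599% in the genome. In KO #2, 63 CpGs were lower than in parental cells, or 0.634% against 0.713%, and 3 were higher, or 0.0302% against 0.0831%. Between the knockout lines, 69 CpGs were lower in KO #1 than in KO #2, or 0.695% against 1.07%, and 10 were higher, or 0.101% against 0.184%. In all 6 counts the share in the clusters was below the share in the genome. Against the rest of chromosome 19, the clusters had the larger share in each lower count, since there 3.07% of CpGs were lower in KO #1, 0.410% in KO #2 and 0.642% in KO #1 against KO #2. In the higher counts the rest had the larger shares, 0.592%, 0.0779% and 0.148%. With reads thinned to the smallest depth of the 3 libraries at each CpG, 26 CpGs in place of 63 were lower in KO #2, 1 in place of 3 was higher, and 294 were lower and 19 higher in KO #1. Lower calls made up 92.8% of the KO #1 calls in the clusters and 88.2% in the genome. Of the 385 lower CpGs, 311 lay in 128 of the 441 windows, with up to 20 in 1 window.

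Windows were called at a difference of at least 25 points, with no p-value because the CpGs of a window share molecules. In KO #1, 13 windows were lower than in parental cells, or 2.95% of the clusters' windows against 4.15% of all windows in the genome, and 2 were higher, or 0.454% against 0.416%. In KO #2, 2 windows were lower, or 0.454% against 0.628%, and none was higher, where 0.0901% of all windows were. On the rest of chromosome 19 the lower windows made up 2.29% in KO #1 and 0.321% in KO #2, both under the share in the clusters. No window of the clusters reached 25 points between KO #1 and KO #2 in either direction, where 0.786% of all windows were lower in KO #1 and 0.116% were higher. Of the 13 windows lower in KO #1, 11 were intermediate and 2 high in parental cells. They were 7 of 204 windows in interval 1 (3.43%), 3 of 84 in interval 2 (3.57%) and 3 of 153 in interval 3 (1.96%). The 13 windows held between 5 and 37 CpGs.

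The size of the difference went with the parental level at every CpG count. The classes were cut on the parental level, which also enters the difference, and a low window cannot fall far. The same order held over the genome. There, windows with 5 to 9 CpGs had medians in KO #1 of -0.94 points when low, -9.20 when intermediate and -1.52 when high. Among windows with at least 20 CpGs, 102 were low, 37 intermediate and 27 high in parental cells. The 37 intermediate windows averaged 48.3% in parental cells, 38.3% in KO #1 and 42.7% in KO #2, and 36 of them were lower in KO #1 and 31 in KO #2. The median difference of these 37 was -9.04 points in KO #1 and -5.84 in KO #2. The 102 low windows with as many CpGs had medians of -0.38 and -0.09 points, and the 27 high windows had medians of -1.62 and -1.23 points. Among windows with 5 to 9 CpGs, the 80 intermediate ones had medians of -9.80 points in KO #1 and -5.76 in KO #2, and 66 and 63 of them were lower. Among windows with 10 to 19 CpGs, the 38 intermediate ones had medians of -9.15 and -5.53 points, with 33 and 30 lower. Most intermediate windows of the genome were also lower. With at least 20 CpGs, 5632 of 6410 were lower in KO #1 and 5326 in KO #2. With 5 to 9 CpGs these counts were 19182 and 17765 of 24093, and with 10 to 19 CpGs 7444 and 7006 of 8958. The CpGs of the 37 dense intermediate windows differed widely among themselves, with a median SD of 29.8 points within a window in parental cells.

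**Figure D2:**
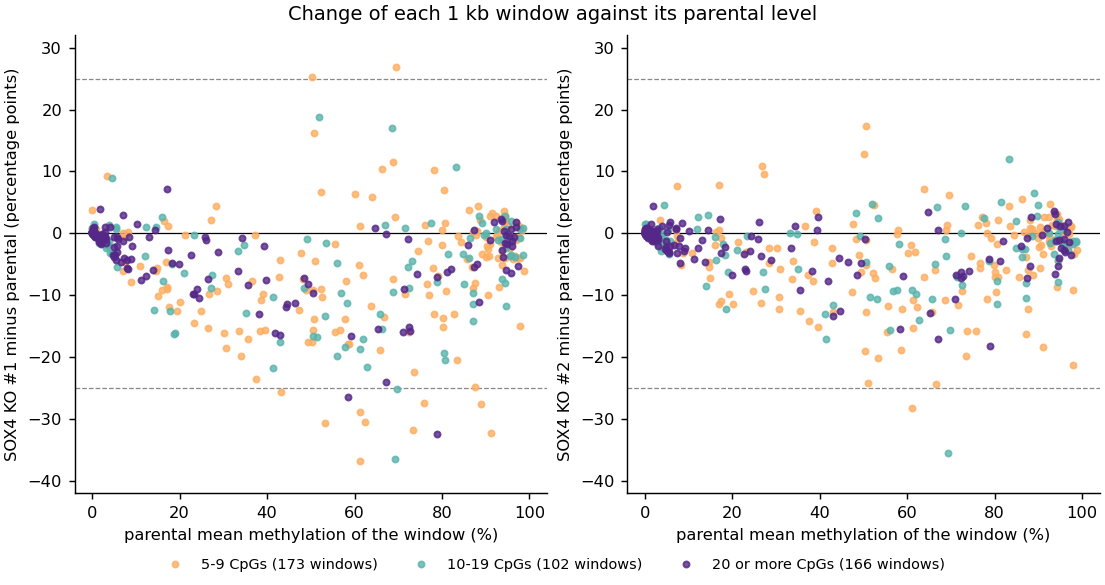
Difference in percentage points of SOX4 KO #1 (left) and SOX4 KO #2 (right) from parental cells against the parental level in percent, 1 point per 1 kb window of the clusters, coloured by the number of CpGs in the window. Dashed lines mark 25 points; 13 windows lie at or below the lower line for KO #1 and 2 for KO #2, and 11 of the 13 were intermediate in parental cells.

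Beside the rest of chromosome 19, the clusters differed modestly. The rest held 132235 CpGs in 7160 windows and averaged 40.8% in parental cells, 37.9% in KO #1 and 39.3% in KO #2, with a knockout mean minus parental of -2.12 points. The same difference in the clusters was -3.01 points, which left -0.89 points beyond the rest. Over the whole genome it was -3.10 points, so by this mean over CpGs the clusters were not beyond the genome. Counted over reads, the gap between the clusters and the rest of chromosome 19 was -0.23 points. It was -0.98 points in KO #1 alone and -0.80 in KO #2 alone, and KO #1 minus KO #2 was -1.57 points in the clusters and -1.39 in the rest. No test of this gap was made, since it rests on 3 libraries. Windows were also compared within classes of parental level and CpG count (5 to 9, 10 to 19 and at least 20). In this order, intermediate windows of the rest had medians of -8.60, -7.91 and -6.93 points in KO #1. Those of the clusters had -9.80, -9.15 and -9.04 points. In KO #2 the intermediate windows of the rest had medians of -3.99, -3.75 and -3.37 points, against -5.76, -5.53 and -5.84 in the clusters. Intermediate windows of the genome had medians of -9.20, -8.41 and -7.82 points in KO #1 at these CpG counts. In KO #2 those of the genome had -4.67, -4.41 and -4.24 points, so within this class the clusters lay further below parental than the genome. The classes are wide, and parental means within them differ. Intermediate windows averaged 52.9%, 54.7% and 48.3% in parental cells in the clusters, and 50.1%, 50.1% and 46.1% in the rest. High windows with 5 to 9 CpGs were the only class with a smaller median difference in the clusters. This was in KO #2, at -0.34 points against -0.89. The clusters also had more CpGs per window, with a median of 13 against 10. Low windows made up 36.5% of the clusters' windows against 32.8% of the rest, and high windows 28.3% against 34.5%. Median depth in parental cells was 40 reads in the clusters and 33 in the rest.

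**Figure D3:**
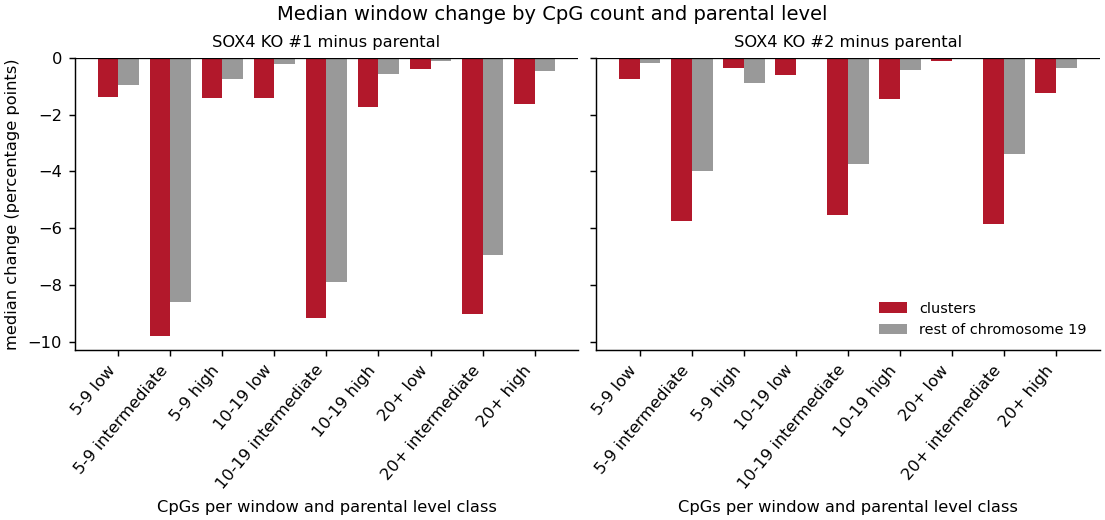
Median difference from parental cells in percentage points of the windows in each class of CpG count (5-9, 10-19, 20 or more) and parental level (low, intermediate, high), for SOX4 KO #1 (left) and SOX4 KO #2 (right), in the clusters (red) and the rest of chromosome 19 (grey). Intermediate windows have the longest bars at each CpG count, from -9.04 to -9.80 points in KO #1 and from -5.53 to -5.84 in KO #2 in the clusters.

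A further zinc finger region on the short arm (19p12, 4.6 Mb from position 20000000, part of the rest) was set beside the clusters. Its 2921 CpGs averaged 30.7% in parental cells, 22.8% in KO #1 and 25.6% in KO #2. The differences of -7.81 and -5.08 points were larger than the -3.80 and -2.22 of the clusters. In its 166 windows the intermediate class was larger (54% of windows with 10 to 19 CpGs, against 37.3% in the clusters), and the median of these intermediate windows was -13.8 points in KO #1. In 19p12, 8.01% of CpGs were called lower in KO #1 and 2.05% in KO #2. No test was made between these regions, which rest on the same 3 libraries.

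The window with the largest difference shared by both lines was chr19:53239001-53240000 in interval 1, which begins 704 bases before the start of ZNF611, a KRAB zinc finger gene on the minus strand. Its 10 CpGs averaged 69.3% in parental cells, 32.8% in KO #1 and 33.9% in KO #2. The knockout libraries lay within 2 points of each other, with differences from parental of -36.5 and -35.4 points. All 10 CpGs were lower in both lines. Their levels ran from 55.9% to 78.3% in parental cells, 20% to 39.1% in KO #1 and 16.7% to 45.3% in KO #2. The window was chosen for its difference and its CpGs share molecules, so their common direction adds no further evidence. By the Fisher exact test 5 CpGs passed in KO #1 and 5 in KO #2. At position 53239268 the counts were 18 methylated of 23 reads in parental cells (78.3%, exact 95% interval 56.3% to 92.5%), 3 of 15 in KO #1 (20%, 4.33% to 48.1%) and 8 of 35 in KO #2 (22.9%, 10.4% to 40.1%), with adjusted p = 0.0155 and 0.00869. The ZNF611 promoter itself was at 1.66%, 0.33% and 0.58%.

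The window chr19:52318001-52319000, with 5 CpGs, stood at 61.2% in parental cells, 24.4% in KO #1 and 33.0% in KO #2. At 52318343 and 52318345, adjacent CpGs at 70% and 72.7% in parental cells, KO #1 had no methylated read, while KO #2 stood at 47.4% and 50%. KO #1 had 11 to 24 reads per CpG in this window, so a count of 0 does not exclude some methylation. The adjacent CpGs share molecules and are not separate observations. The window chr19:52848001-52849000, with 6 CpGs, stood at 53.2%, 22.7% and 33.1%. Its difference came from 3 neighbouring CpGs. At 52848676 the level was 84.9% in parental cells (62 of 73 reads), 22.2% in KO #1 (14 of 63) and 43.7% in KO #2 (38 of 87), with adjusted p of 2.75e-11 and 7.7e-05 by the Fisher exact test. At 52848754 it was 70.8%, 4.88% and 39.3%, and KO #1 was also below KO #2 there (adjusted p = 0.00707, Fisher exact test). No placed start of a listed gene lay within 1 kb of either window.

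The window chr19:57741001-57742000 ends upstream of the start of AURKC, which encodes a kinase of the Aurora family active in meiosis. Its 9 CpGs averaged 91.1% in parental cells, 58.9% in KO #1 and 72.8% in KO #2. Both knockout libraries were lower, KO #1 the more so, with 6 CpGs called in KO #1 and none in KO #2. At 57741985 the level was 87.2%, 42.7% and 73.6%, with adjusted p = 1.39e-07 for KO #1 by the Fisher exact test. The AURKC promoter beside it averaged 93.1%, 88.3% and 92.2%, with no CpG called in either line. The window chr19:58239001-58240000 (8 CpGs at 73.4%, 41.7% and 53.6%) begins 9 bases upstream of the start of ZNF671 and holds 8 of the 10 CpGs of its promoter, described below.

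Windows with higher levels in both lines were fewer and differed less. The largest shared difference was at chr19:53384001-53385000, whose 8 CpGs averaged 50.7% in parental cells, 66.9% in KO #1 and 68.1% in KO #2. No CpG of this window passed the test in either line. The window chr19:58340001-58341000 before ZNF587B, with 5 CpGs, stood at 50.2%, 75.5% and 63.1%, and chr19:53162001-53163000, with 8 CpGs, at 69.5%, 96.4% and 75.7%. Each had 1 CpG called higher in KO #1 and none in KO #2. At 53162221 the counts were 2 methylated of 12 reads in parental cells, 13 of 13 in KO #1 and 7 of 11 in KO #2 (adjusted p = 0.000849 for KO #1, Fisher exact test). The window chr19:58850001-58851000 stood at 83.2%, 93.9% and 95.3% over 14 CpGs with none called, and chr19:53924001-53925000 at 63.9%, 69.8% and 71.1% over 7 CpGs with 1 called in KO #1.

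The densest window of each interval showed small differences. In interval 1, chr19:53073001-53074000 at the start of ZNF701 held 61 CpGs at 7.97% in parental cells, 3.74% in KO #1 and 7.29% in KO #2, with 3 CpGs called lower in KO #1. In interval 2, chr19:57175001-57176000 held 103 CpGs, the most of any window in the clusters, and was methylated throughout at 94.7%, 94.4% and 93.7%. In interval 3, chr19:58790001-58791000 at the start of ZNF8 held 84 CpGs at 0.26%, 0.51% and 0.66%. Dense windows of the clusters thus included both a fully methylated and an unmethylated stretch, and no CpG was called in either of these last windows.

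Promoters were placed by matching the CpG spacing of RefSeq promoter sequences, each with 250 bases before and 50 after a start site, to the CpG positions in the files. This placed 78 zinc finger promoters with at least 5 CpGs used, 1626 CpGs in all. Their median level was 0.56% in parental cells, 0.40% in KO #1 and 0.68% in KO #2. In parental cells 68 promoters were low, and 45 of these were under 1%. The 5 intermediate ones were ZNF432, ZNF534, ZNF677, ZNF671 and ZNF814, and the 5 high ones were ZNF331, ZSCAN5B, ZNF154, ZNF587B and ZSCAN18; those outside the rule for named genes (ZNF432, ZNF814, ZSCAN5B and ZNF587B) were chosen after their values were seen. On the rest of chromosome 19, 82.4% of 797 placed promoters were low, 12.9% intermediate and 4.64% high, against 87.2%, 6.41% and 6.41% in the clusters. Among the 152 zinc finger promoters of the rest, 92.8% were low and 0.658% high.

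**Figure D4:**
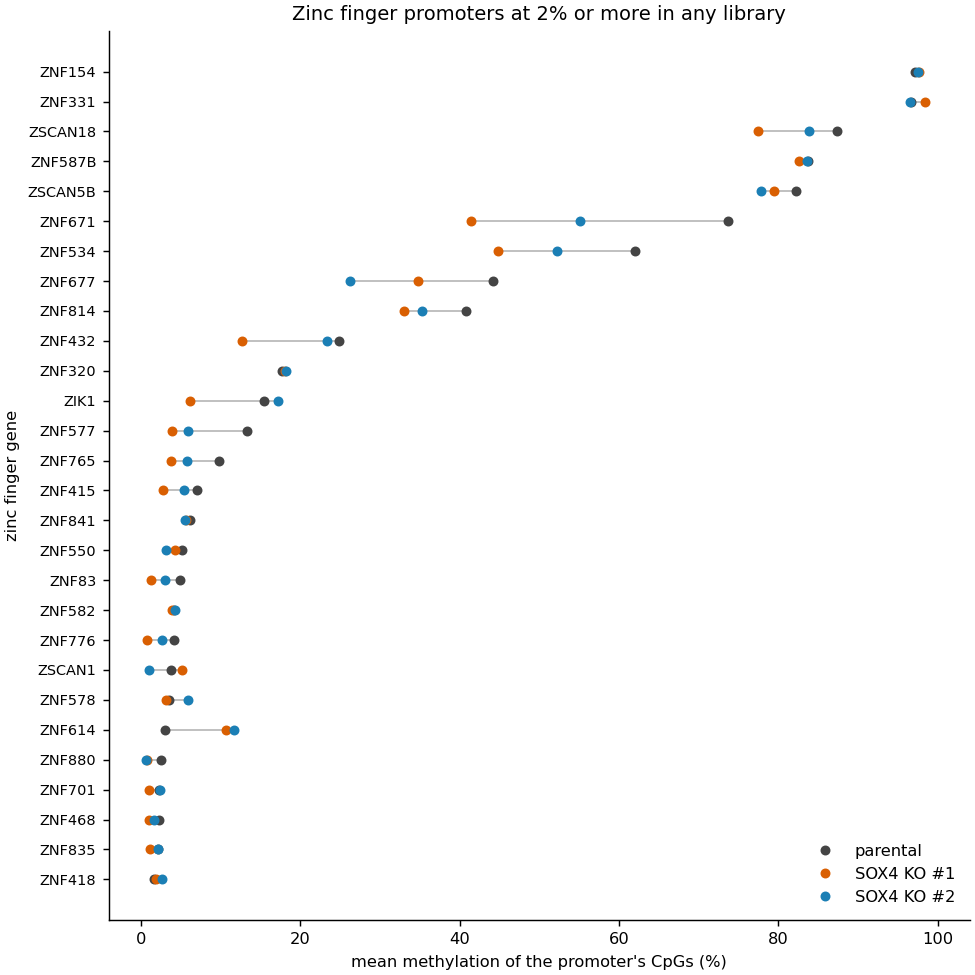
Mean methylation level in percent of the 28 zinc finger promoters that reached 2% in any library, ordered by their parental level, in parental cells (grey), SOX4 KO #1 (orange) and SOX4 KO #2 (blue). The other 50 promoters were under 2% in all 3 libraries; the widest gap between libraries is at ZNF671, from 73.7% in parental cells to 41.4% in KO #1.

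The low promoters differed little between libraries. The 68 had a median difference from parental of -0.07 points in KO #1 and 0.00 in KO #2. Their CpGs were called lower in KO #1 at 4 promoters (ZNF880, ZNF83, ZNF415 and ZNF765) and in KO #2 at 2 (ZNF577 and ZNF765), all chosen after their values were seen, and none was called higher. On the rest of chromosome 19, 86 of 797 placed promoters held a CpG called lower in KO #1 and 23 held one in KO #2, against 7 and 3 of all 78 zinc finger promoters of the clusters. The lowest parental levels were tied at 0, and the rule took the first 5 in order of position. ZNF547 had 0 methylated of 2438 CpG reads, which allows a level of up to 0.123%, and stood at 0.09% in KO #1 and 0.16% in KO #2. ZNF749 had 0 of 1922 (up to 0.156%), ZNF530 0 of 388 (up to 0.773%), ZNF805 0 of 355 (up to 0.845%) and ZNF772 0 of 260 (up to 1.15%). In the knockout libraries these 4 lay between 0% and 0.77%. ZNF8 was also at 0 in parental cells and stood at 0.40% and 0.68%, and ZNF667, with 42 CpGs in its sequence, stood at 0.46%, 0.82% and 1.24%. None of the CpGs of these 7 promoters was called.

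Away from the start, the methylation of the low promoters climbed. In the 250 bases before the start the 68 averaged 2.15% in parental cells, 1.53% in KO #1 and 1.98% in KO #2. Between 500 and 250 bases before it, where 54 had CpGs, the averages were 29.9%, 24.7% and 26.8%, and between 1000 and 750 bases before it, where 14 had CpGs, they were 64.1%, 57.0% and 60.0%. After the start the level stayed low for longer. It was 4.45%, 3.27% and 3.82% between 250 and 500 bases and 57.1%, 51.2% and 53.7% between 750 and 1000 bases. The bins hold different promoters, and the level at the start itself was used to form the class. KO #1 was the lowest of the 3 libraries in each bin from 1250 bases before to 1250 bases after the start.

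**Figure D5:**
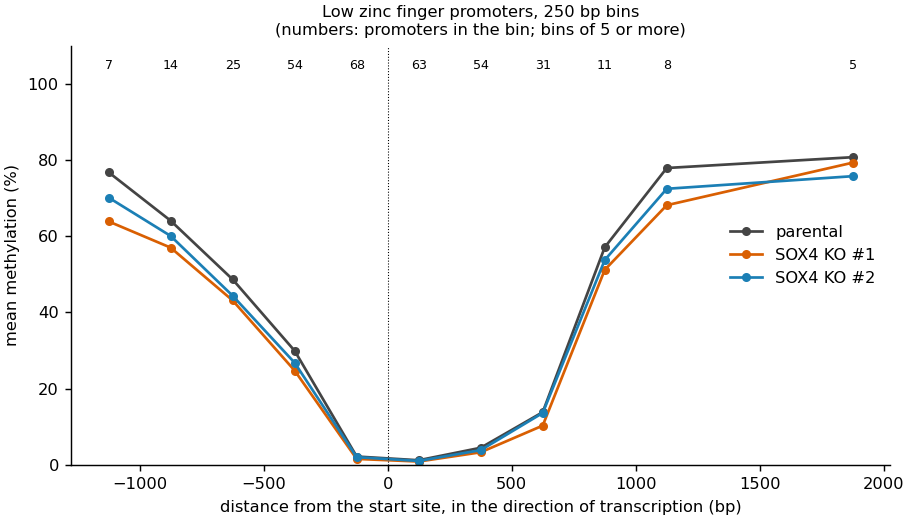
Mean methylation level in percent of the CpGs around the start site of the 68 low zinc finger promoters, in bins of 250 bp along the direction of transcription, in parental cells (grey), SOX4 KO #1 (orange) and SOX4 KO #2 (blue). Numbers at the top give the promoters in each bin, and bins with under 5 are not drawn; the curves reach their floor at the start site and climb to 76.8%, 63.9% and 70.1% between 1250 and 1000 bases before it.

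ZNF671, a KRAB zinc finger gene on the minus strand with its promoter at chr19:58238943-58239242, had the largest difference of the clusters' placed promoters in KO #1. Its 10 CpGs averaged 73.7% in parental cells, 41.4% in KO #1 and 55.1% in KO #2. Both knockout libraries lay below parental, by a difference of -32.3 points in KO #1 and -18.6 in KO #2, and KO #1 minus KO #2 was -13.7 points. By the Fisher exact test 5 of the 10 CpGs were lower in KO #1 and none in KO #2. At 58239075 the counts were 36 methylated of 41 reads in parental cells (87.8%, exact 95% interval 73.8% to 95.9%), 19 of 41 in KO #1 (46.3%, 30.7% to 62.6%) and 33 of 39 in KO #2 (84.6%, 69.5% to 94.1%). KO #1 was below both other libraries there, with adjusted p = 0.0037 against parental and 0.0299 against KO #2 by the Fisher exact test. These were the smallest adjusted p of the promoter, and the CpG is not typical of KO #2. It had the highest KO #2 level of the 10 CpGs, whose median in KO #2 was 52.2%. The window that follows the start, chr19:58238001-58239000, chosen after its values were seen, held 37 CpGs at 78.9%, 46.4% and 60.7%, and 20 of them were called lower in KO #1 and 1 in KO #2. The promoter of ZNF154, 18420 bases away by their start sites, showed no such difference. Its 14 CpGs averaged 97.2%, 97.6% and 97.5%, with none called.

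ZNF534, at chr19:52932151-52932450 on the plus strand, averaged 62.0% in parental cells, 44.9% in KO #1 and 52.2% in KO #2 over 16 CpGs. The CpG at 52932270 was lower in both lines, with 47 methylated of 58 reads in parental cells (81.0%), 17 of 42 in KO #1 (40.5%) and 34 of 78 in KO #2 (43.6%), and adjusted p = 0.00171 and 0.00292 by the Fisher exact test. The CpGs of ZNF534 ranged from 7.32% to 100% in parental cells, and the 4 from 52932380 to 52932389 stood above 90% in both parental cells and KO #2. ZNF677 averaged 44.2%, 34.8% and 26.3% over 14 CpGs, so that KO #2 was the lowest library here. No CpG of ZNF677 was called against parental cells, and 1 was called higher in KO #1 than in KO #2. ZSCAN18, a zinc finger gene with a SCAN domain, averaged 87.4%, 77.5% and 83.8% over 18 CpGs, with 1 called lower in KO #1. Its direction turned with the depth required, since the knockout mean minus parental was -6.72 points at 10 reads and 2.57 points at 20 reads. A 2nd placed start of ZSCAN18 stood at 0.17%, 0.17% and 0.27%. ZNF582 was low at 4.10%, 3.91% and 4.30% over 18 CpGs, with none called.

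ZNF614, at chr19:52531583-52531882 on the minus strand, had the largest difference upwards. Its 21 CpGs averaged 3.02% in parental cells, 10.7% in KO #1 and 11.6% in KO #2, with both knockout libraries above parental. None of these CpGs passed the test over the genome. The CpG nearest to passing, at 52531652, had 1 methylated of 55 reads in parental cells, 10 of 53 in KO #1 and 18 of 91 in KO #2, with adjusted p = 0.0576 and 0.0976 by the Fisher exact test. Among the starts used, the next in order, PPP2R1A, ZNF8, ZNF320 and ZNF667, were less than 2 points above parental in both lines, with no CpG called. ZNF432 gave opposite directions at overlapping starts, with no CpG called at either. Its start at 52552091, the one used, averaged 24.9%, 12.7% and 23.3% over 27 CpGs, and its start at 52551814 averaged 17.6%, 25.1% and 23.9% over 10 CpGs. ZNF320 averaged 17.7%, 18.1% and 18.2%, with CpGs from 0% to 100% within the promoter in parental cells. Another placed start of ZNF320, at 53400947, averaged 28.5%, 28.8% and 28.0% over 20 CpGs. Its low class and its direction in KO #2 thus depend on the start used. The PPP2R1A promoter used here is its 2nd placed start, at 88.8%, 90.8% and 90.6%, and the other placed start of this gene, which encodes a scaffold subunit of protein phosphatase 2A, stood at 0.13%, 0% and 1.55%.

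ZNF331 showed 3 levels along its length. The start at 54024268 was unmethylated, at 0.10%, 0.05% and 0.03% over 17 CpGs. The starts at 54057867, 54058081, 54058494 and 54058561 were methylated, and the first of these averaged 96.7% in parental cells, 98.4% in KO #1 and 96.5% in KO #2 over 34 CpGs. None of the CpGs at the 5 starts was called. Between them lay 2 windows near the middle of the scale, chosen after their values were seen. The window chr19:54041001-54042000 held 57 CpGs at 50.4%, 40.7% and 49.5%, and chr19:54040001-54041000 held 11 CpGs at 48.3%, 39.6% and 51.7%. Their CpGs were alike, with an SD of 11.8 and 4.22 points within the window in parental cells, against a median of 29.8 points in the intermediate windows with at least 20 CpGs. KO #1 minus KO #2 was -8.83 and -12.1 points in these windows, and no CpG in either was called against parental cells.

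Of the 6 other promoters of the intervals, 5 were lower in both knockout lines than in parental cells, and 4 (NLRP8, USP29, DUXA and A1BG, of which NLRP8 and A1BG were chosen after their values were seen) had CpGs called lower in KO #1. On the rest of the chromosome, 442 of the 797 promoters were lower in KO #1 and 421 in KO #2, and 86 had a CpG called lower in KO #1. The sets are unlike, since these 6 were all intermediate or high in parental cells, where 657 of the 797 were low. DUXA, a double homeobox gene of the early embryo, averaged 71.7% in parental cells, 50.4% in KO #1 and 59.3% in KO #2 over 6 CpGs read at least 66 times each. Its CpG at 57678888 went from 127 methylated of 130 reads (97.7%, exact 95% interval 93.4% to 99.5%) to 70 of 111 in KO #1 (63.1%, 53.4% to 72.0%, adjusted p = 1.67e-10) and 116 of 147 in KO #2 (78.9%, 71.4% to 85.2%, adjusted p = 0.000379). The difference in KO #2 was under 25 points there and so was not called. USP29, a ubiquitin protease gene, averaged 73.2%, 57.9% and 63.2% over 20 CpGs, with 1 called in KO #1. Its other placed start averaged 75.0%, 56.1% and 70.0% over 14 CpGs, with 3 called lower in KO #1 and 1 in KO #2.

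Neighbouring zinc finger promoters mostly shared their class because most were low. Of the 75 pairs of consecutive placed promoters within an interval, 57 were both low and none were both high. A low promoter stood beside a high one in 8 pairs, and 5 of these were in interval 3. The median distance between start sites was 29108 bases in interval 3, 41317 in interval 1 and 56496 in interval 2. The low promoters had a median of 25 CpGs and 62.5% G and C in their 300 bases, against 20 CpGs and 54.3% in the intermediate and 19 CpGs and 54.3% in the high ones. Promoter letters were also searched on both strands. The NRF1 motif (GCGC, then A, any base and GCGC again) stood in 9 of the 78 zinc finger promoters (11.5%), in 9.60% of the chromosome's 1917 promoter sequences and in 5.78% of all 35116, and ZNF667, ZNF347 and ZNF331 were among those holding it. The GC box GGGCGG stood in 71.8% of the 78, in 61.8% of those of the chromosome and in 45.0% of all. It was in 51 of 68 low, 4 of 5 intermediate and 1 of 5 high promoters. The CCAAT box stood in 46.2%, 37.1% and 34.6% in the same order. These sets are unlike, so the shares are not compared like for like. The 78 hold 1 start per gene and had to have enough CpGs to be placed. The other sets hold every sequence, and only 1171 of the chromosome's 1917 were placed. Whether the filter accounts for the higher shares was not tested. Matches of different motifs may share bases.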

How the data were processed

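The authors deposited, for each library, counts of reads per CpG cytosine and strand (total, in CpG context, methylated) and a methylation level, a fraction that the authors computed as methylated over context reads. Per the labels, 500 ng of DNA sheared to 150 to 200 bp was captured, converted and sequenced on a NovaSeq instrument. The submitters' processing notes name GRCh37 (hg19). The aligner, caller, filters and removal of duplicates are not given in the sources used here. Reads of both strands were added for each CpG, whose printed position is that of its forward-strand G. A level is a percent, a window level the mean over its CpGs, and positions count from 1.

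RefSeq promoter sequences (GRCh38.p14, with coordinates of that build used only in the check below) were placed on GRCh37 by CpG spacing. At least 6 CpGs, 50% of the sequence's CpGs and 90% of those in the files had to match, with a second-best score (shared over all CpGs) of at most 0.75 of the best. Of 94 listed zinc finger genes 81 had a sequence and 79 were placed; of 13 other genes 9 had one. ZNF471 was not placed. As a check, the distance between the builds varied by at most 3 bases over the starts placed in an interval. Over the whole chromosome, 1004 of 1170 pairs of consecutive placed sequences were in the same order on GRCh37. Placement outside the intervals is thus less sure. Where a gene had several starts, the one with the most CpGs used was taken.

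Promoters and windows were named by these rules: the 5 largest rises and the 5 largest falls by the smaller of the 2 lines' differences, the 5 highest and 5 lowest parental promoters, 7 genes known from tumours or imprinting, and the window with the most CpGs per interval. Members, lists and genes were chosen with earlier results of these data known. Fisher exact tests (Python 3.11.15, scipy 1.17.1, numba 0.67.0, numpy 2.4.6, pandas 2.3.3) were tested on simulated data. The knockout itself was not checked here. Alternatives were 5 or 20 reads, reverse-strand reads only, reads thinned to the smallest depth, read-weighted levels, other thresholds, shifted windows and leaving out each knockout line.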

Additional observations from a re-analysis of the deposited data

How the results depend on the processing

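Under the alternatives, 264 values were computed for 48 results, and 204 kept their direction and stayed within a wide margin. Counts that went from 63 to 42 or from 385 to 266 were within it. For levels the SD between the knockout lines was the margin, which leaving out 1 line cannot exceed, so that setting could only turn a direction. The window chr19:53162001-53163000 went from 16.5 points to 6.21 without KO #1 and still counted as kept. The mean difference of the clusters stayed below parental throughout, from -2.22 (KO #2 alone) to -3.80 (KO #1 alone), and its excess over the rest of chromosome 19 was -1.03 points at 5 reads, -0.73 at 20 reads and -0.23 with read-weighted levels. CpGs lower in KO #1 than parental numbered 88 at 50 points. Those lower in KO #2 numbered 7 at 50 points, 30 at an adjusted p under 0.01 and 26 after thinning. CpGs higher in KO #1 numbered 11, 17 and 19 under the same 3 settings, and higher in KO #2 1, 1 and 1, or 0 on the reverse strand alone. Between the lines, CpGs lower in KO #1 numbered 9, 40 and 39, or 105 at 10 points, and higher 0, 2 and 3. Windows lower in KO #1 than parental numbered 90 at 10 points, 0 at 50 points, 8 at 20 reads and 4 with at least 10 CpGs; windows higher numbered 9 and 0 at these thresholds, 1 at 5 reads, at 20 reads and with windows shifted by 500 bp, and 0 with at least 10 CpGs or read-weighted. Windows lower in KO #2 numbered 54 at 10 points, 0 at 50, 1 at 20 reads and 1 with at least 10 CpGs, and higher 4 at 10 points. Between the lines, windows numbered 30 lower and 11 higher at 10 points, and 2 lower and 1 higher at 5 reads.

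Directions turned at 4 promoters with small differences or thin coverage: ZNF320 to -0.12 points at 20 reads, ZNF582 to -0.037 at 20 reads and -0.29 read-weighted, ZSCAN18 to 2.57 at 20 reads, and by leaving out 1 knockout line ZNF331 (-0.17 to 1.70) and ZNF582 (-0.18 to 0.21). The cause was not tested. No paired analysis was possible because only 1 parental library was there to pair. Counts of CpGs or windows called in both lines were not used, since both comparisons share the parental library.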
